A study of Mus musculus with 8 samples.

Results

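The actin cytoskeleton and integrin adhesion genes described here are 40 genes chosen by name: serum response factor with actins and contractile genes, actin regulators, integrins, and the adaptors and kinases of focal adhesions. A probe set annotated with exactly 1 of these symbols was found for 38 of them, and each gene was read from its brightest one by mean log2 signal. Of these, 36 had a mean signal high enough to be tested, out of 8675 genes tested and 12393 genes on the array. Myh10 and Ptk2 were not analysed here, and the probe sets of Tagln and Cnn1 were too dim to be tested. The cells were TTE3, a line of mouse Sertoli cells whose donor animals bore a transgene for a temperature-sensitive SV40 large T-antigen, so they are immortalized and stand for the somatic nurse cells of the seminiferous tubule only in part. The agent was bisphenol A (BPA), from which polycarbonate is made, at 0.2 mM for 0, 3, 6 or 12 h, and each time has 2 one-colour Affymetrix Mouse 430A arrays of total RNA. Cells kept for 3, 6 or 12 h without BPA were not analysed here, so BPA and time in culture cannot be told apart. Whether replicate arrays stem from separate cultures is not in the labels, so p-values measure the spread between these arrays, which may be technical.

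Actin filaments give a cell its shape and, through integrins, its grip on the matrix. Integrins are pairs of an alpha and a beta chain that bind matrix proteins outside the cell and, through talin, vinculin, paxillin, the kinase FAK and the pseudokinase ILK, the actin network inside. Serum response factor (SRF) is a transcription factor that binds CArG boxes in the promoters of actin and contractile genes, and a coactivator held in the cytoplasm by free actin monomers ties its activity to the state of the filaments. In Sertoli cells, actin bundles line the junctions of the blood-testis barrier and the contacts with germ cells.

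Signals below are the authors' probe set intensities on a linear scale. Changes are differences of log2(signal + 7.9) with their standard error (SE) from a model over all 8 arrays, fitted with limma. A gene was called higher or lower at a Benjamini-Hochberg adjusted p under 0.05 over all 8675 genes. Median signals per array lay between 150.8 and 170.1, and precision is limited by having 2 arrays a time. Among Sertoli markers Clu, Kitl and Gata4 were above the filter, as were 7 of the 11 on the array, but the defining markers Amh, Fshr, Cldn11 and Dhh were below it. The summed signal of all 11 was 5763 to 6790 at 12 h and 10284 to 10534 at 0 h, and most of it was Clu, with 3089 and 3729 at 12 h, against 7747 and 7554 at 0 h. Of the 7 tested, 2 were higher at 12 h, Sox9 (1.55, adjusted p = 0.00391) and Gata4 (0.50, 0.0154), and 2 were lower, Clu and Inhbb, with a median of -0.11. Sox9 was dim, with 26.2 and 60.9 at 0 h, against 147.4 and 122.3 at 12 h. Its mean of 43.55 at 0 h lay below the filter, a signal of 47.6, which it passed only through the arrays with BPA. The size of its rise is therefore uncertain. Of 5 markers of peritubular myoid and smooth muscle cells that are no members, 2 were above the filter, Des and Smtn, and the summed signal of all 5 was 489.2 to 529.1 at 12 h, against 298.6 to 312.5 at 0 h. Smtn rose, with 308 and 348.3 at 12 h, against 161 and 178.3 at 0 h (adjusted p = 0.00189), while Des changed by -0.01 ± 0.32 (adjusted p = 0.984). Markers of Leydig, germ, macrophage and endothelial cells had summed signals of at most 551.7, 149.8, 640 and 177.4 at 12 h and at most 470.5, 127.8, 652.6 and 130.2 at 0 h. The part of these shifts in the results below was not tested.

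Most members that changed were lower, and more were lower at later times. At 3 h 1 member was higher and 3 were lower, which is 11.1% of the 36 tested, against 12.1% of all genes tested (8.55% higher and 3.53% lower). At 6 h 1 was higher and 10 were lower, or 30.6%, against 26.5% of all genes (16.8% higher and 9.73% lower). At 12 h none was higher and 16 were lower, which is 44.4% of the members. Over all genes 38.4% were called at 12 h, 20.9% higher and 17.5% lower. The median change of the members was -0.09, -0.19 and -0.22 at 3, 6 and 12 h, beside medians of 0.06, 0.07 and 0.06 over all genes. By the F test over the time course 12 members changed (33.3%), against 35.8% of all genes. In 27 members the 12 h arrays did not overlap the 0 h arrays, which is 75% of those tested, beside 69.6% of all genes. The arrays measured bulk RNA, in which fewer cells of a kind and less RNA per cell cannot be told apart.

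**Figure D1:**
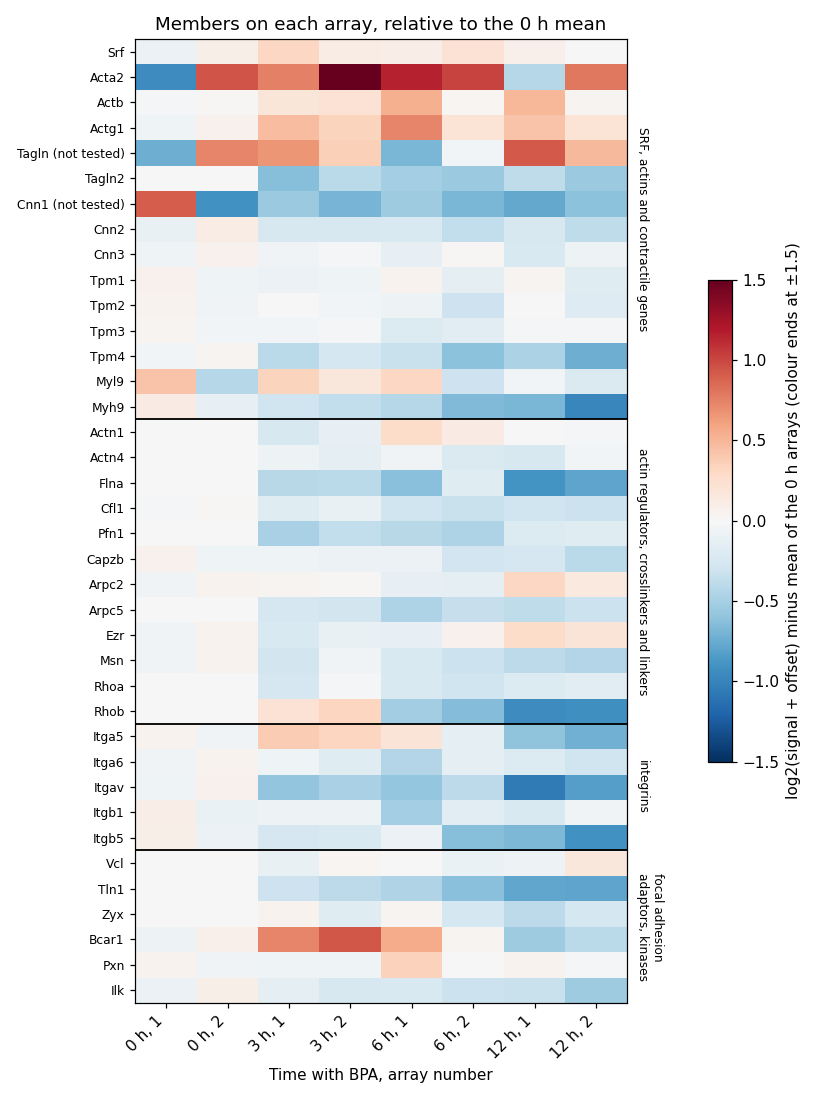
Each row is a member with a probe set and each column an array, ordered by time with BPA. Colour gives log2(signal + 7.9) minus the mean of the 0 h arrays. Blue, lower signals gather in the 12 h columns for Myh9, Flna, Rhob, Itgav, Itgb5 and Tln1, while Bcar1 is red at 3 h and blue at 12 h; the dim probe sets of Acta2, Tagln and Cnn1 differ as much between the 0 h arrays as between times.

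The size of these counts rests on few arrays and on the scaling. With the arrays scaled to the same median, the median of all genes moved from 0.06 to -0.07 at 3 h and from 0.07 to -0.04 at 6 h. The members called were then 1 higher and 8 lower at 3 h and 0 higher and 16 lower at 6 h. Shares of all genes called under that scaling or without single arrays are not given here. Without those shares the counts describe the settings only, and whether the members differed from other genes in these settings was not tested. At 12 h the count of lower members was 10 and 8 without array 1 or 2 at 0 h and 9 without array 2 at 12 h. At 6 h the total was 5 without either 0 h array and 7 without array 1 at 6 h. Without array 2 at 6 h 4 members were higher, Actb, Bcar1 and Pxn beside Actg1, and 10 were lower. The 3 h total was 1 and 2 without array 1 or 2 at 0 h, 1 without array 1 at 3 h, and 7 without either 6 h array. Of the 16 calls at 12 h, 6 held in all 18 alternative settings: Tpm4, Myh9, Flna, Rhob, Itgav and Itgb5.

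**Figure D2:**
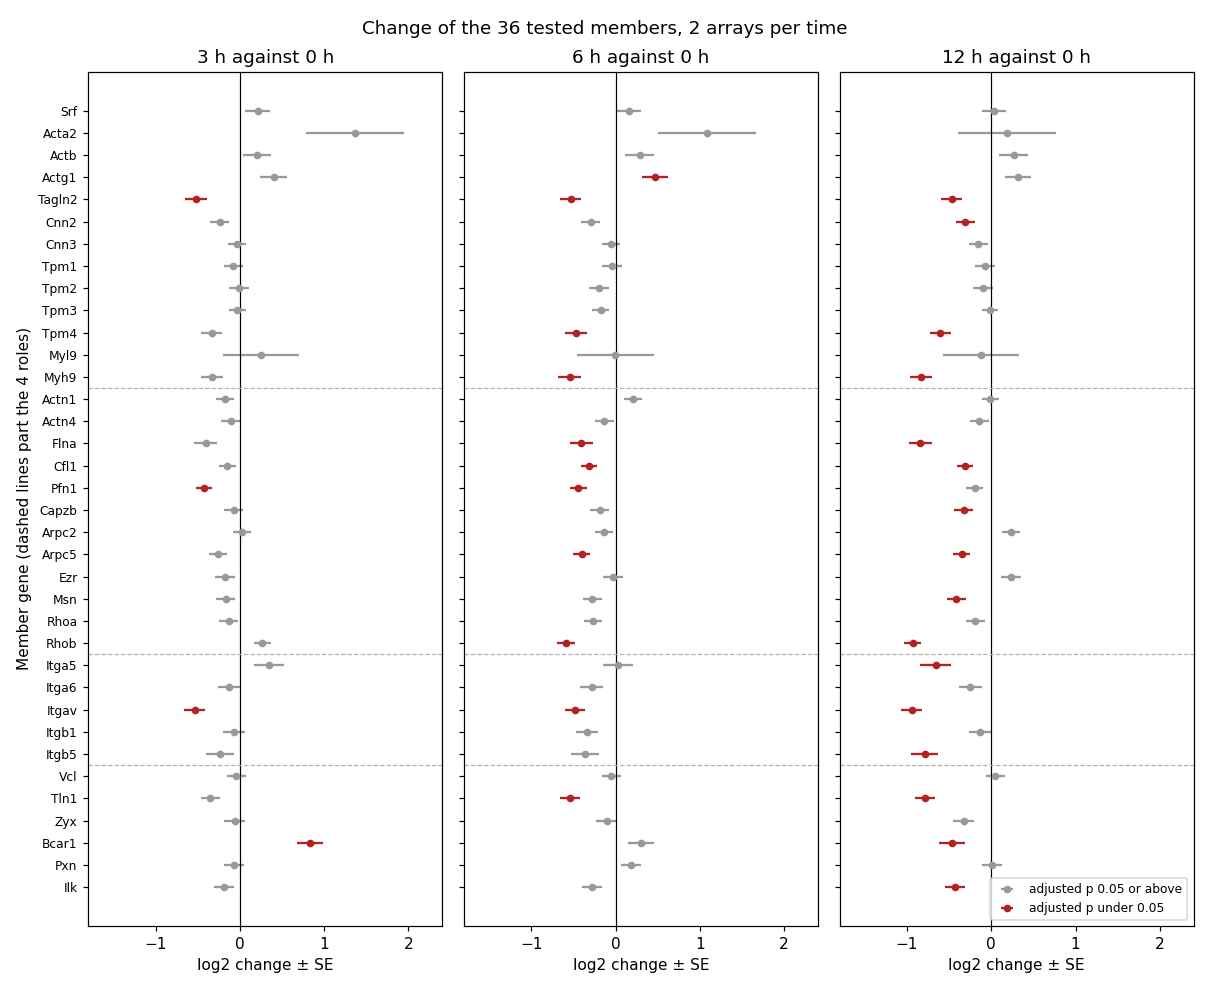
Change of the 36 tested members at 3, 6 and 12 h against 0 h, as log2 change ± SE from the model with 2 arrays per time. Red points passed the adjusted p of 0.05; at 12 h all 16 red points lie below 0.

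The CArG boxes that SRF binds were present in the promoters of several members, and they are shown because these genes are the classical readout of SRF. RefSeq promoter windows (GRCm38.p6) were found for 35 of the 40 members; Actb, Tagln, Itga6, Pxn and Ptk2 had none. A full CArG box lay in the 250 bases before a start site in 5 members (14.3%), against 439 of 27025 genes (1.62%) searched the same way. The members were chosen by name, with Srf and classical SRF readouts among them, so this difference is no finding about them and was not tested. The box reads as a CArG box on both strands. The 5 members with a box were Srf, Actg1, Cnn2, Myl9 and Vcl. Capitals below mark the boxes, read 5′ to 3′ on the gene's strand with 25 bases on either side where the window allows.
Srf, chr17:46556190-46556269, minus strand: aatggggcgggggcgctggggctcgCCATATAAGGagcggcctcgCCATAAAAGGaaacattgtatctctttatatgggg
Actg1, chr11:120348551-120348610, minus strand: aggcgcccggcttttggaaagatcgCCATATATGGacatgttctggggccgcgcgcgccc
Cnn2, chr10:79988519-79988578, plus strand: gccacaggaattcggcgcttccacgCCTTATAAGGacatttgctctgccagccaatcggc
Myl9, chr2:156775278-156775337, plus strand: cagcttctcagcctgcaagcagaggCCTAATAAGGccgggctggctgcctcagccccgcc
Vcl, chr14:20929148-20929205, plus strand: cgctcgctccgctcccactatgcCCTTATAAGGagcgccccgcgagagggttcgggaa
The boxes begin 82 and 62 bases before the start of Srf, 90 before Actg1, 56 before Cnn2, 161 before Myl9 and 227 before Vcl. A match is a description of the letters and not a measured binding site.

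Of these 5 genes, Actg1 was called higher at 6 h, Cnn2 was called lower at 12 h, and the other 3 passed the test at no time. Srf, which carries a pair of boxes in its own promoter, had signals of 366.7 and 411.9 at 0 h, 483.4 and 420.4 at 3 h, 417.3 and 453.7 at 6 h, and 408.9 and 386.6 at 12 h. The 3 h and 6 h arrays lay above both 0 h arrays, but no change passed the test. At 3 h it was 0.21 ± 0.15 (log2, SE, n = 2 per time; adjusted p = 0.408), with a 95% interval of -0.11 to 0.53. The other, dimmer Srf probe set changed by 0.69, 0.51 and 0.51 at 3, 6 and 12 h. All its arrays with BPA lay above both 0 h arrays, but it was not tested by itself. Actg1, the gene of cytoplasmic gamma actin, was the only member called higher at 6 h, by 0.47 ± 0.16 (adjusted p = 0.043). Its signals were 18438 and 20065 at 0 h, 26570 and 24191 at 3 h, 32009 and 22092 at 6 h, and 25905 and 22119 at 12 h. Every array with BPA lay above both 0 h arrays, and the 6 h arrays differed most from each other. The call was lost in 11 of 18 settings, and the change was 0.20 without array 1 at 6 h (adjusted p = 0.34), 0.41 and 0.53 without array 1 or 2 at 0 h (0.219 and 0.107), and 0.16 after quantile normalization (0.212). Cnn2, a calponin that binds actin and restrains myosin, fell at 12 h by 0.31 ± 0.11 (adjusted p = 0.0495). That call, nearest of all to the threshold, was lost in 8 settings and stood at 0.348 and 0.233 without array 2 at 0 h or at 12 h. Myl9, a regulatory light chain of myosin, had dim signals of 36.9 to 72.6 over the 0 h arrays and 43.9 to 50.7 over the 12 h arrays. Vcl, vinculin, which links talin to actin, changed by 0.05 ± 0.11 at 12 h (95% interval -0.20 to 0.30).

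Actb, cytoplasmic beta actin, often serves as a reference gene. Its signals were 22844 and 23271 at 0 h, 26200 and 26782 at 3 h, 33456 and 23582 at 6 h, and 32472 and 23660 at 12 h. All arrays with BPA lay above both 0 h arrays, with array 1 well above array 2 at 6 and 12 h. The changes were 0.20 ± 0.17, 0.28 ± 0.17 and 0.27 ± 0.17, and none passed the test (adjusted p = 0.507, 0.245 and 0.241). The array also carries 3 beta actin quality probe sets, and the one at the 3′ end read 31403 and 23438 at 12 h, against 23213 and 24988 at 0 h. Here the groups overlapped, and the quality probe sets changed by 0.17 at the 3′ end, 0.04 in the middle and 0.17 at the 5′ end at 12 h. Their ratio of 3′ to 5′ signal was 1.11 to 1.19 on the 8 arrays. The other Actb probe set, far dimmer, read 444.3 and 328.1 at 12 h, against 173 and 222.1 at 0 h, a difference of 0.93 that was not tested by itself. So the readings of beta actin ranged from 0.04 to 0.93 at 12 h.

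The smooth muscle type genes were dim or scattered. Acta2, smooth muscle alpha actin, read 24 and 109.9 at 0 h, 95.3 and 233.6 at 3 h, 128.9 and 115.7 at 6 h, and 37.8 and 98.3 at 12 h. The 0 h arrays differed from each other more than the 6 h arrays did from the higher of them, and the change of 1.36 ± 0.58 at 3 h did not pass (adjusted p = 0.154, 95% interval 0.11 to 2.62). Tagln, the smooth muscle marker transgelin, read 14.2 to 61.7 over all arrays. Cnn1, smooth muscle calponin, read 72.6 on array 1 at 0 h and 14.8 to 21.6 on the other 7. Neither was tested, since the filter lay at a signal of 47.6.

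Among non-muscle contractile genes, Myh9 and Tpm4 fell while Tpm1, Tpm2 and Tpm3 did not pass the test. Myh9, the heavy chain of non-muscle myosin IIA, had signals of 5190 and 4386 at 0 h, 3870 and 3705 at 3 h, 3539 and 3011 at 6 h, and 2963 and 2409 at 12 h. Every later array lay below both 0 h arrays. It fell by 0.55 ± 0.13 at 6 h (adjusted p = 0.00799) and by 0.83 ± 0.13 at 12 h (adjusted p = 0.000265), and the 6 h call was lost without array 1 at 0 h (adjusted p = 0.108) or without the intensity trend (0.0544). Its 3 other probe sets changed by -0.39, -0.70 and -0.77 at 12 h. Tpm4, a tropomyosin of non-muscle filaments, had signals of 4262 and 4546 at 0 h, 3318 and 3655 at 3 h, 3496 and 2873 at 6 h, and 3161 and 2644 at 12 h. Again no later array reached the 0 h arrays. It fell by 0.47 ± 0.13 at 6 h (adjusted p = 0.0146) and by 0.61 ± 0.13 at 12 h (adjusted p = 0.00209). The 6 h call was lost without array 1 or 2 at 0 h (adjusted p = 0.057 and 0.113), without array 2 at 6 h (0.0925) or without the trend (0.0715). The other tropomyosins, Tpm1, Tpm2 and Tpm3, stabilise filaments of muscle and non-muscle cells. They had 12 h changes of -0.07, -0.10 and -0.02, with 95% intervals of -0.32 to 0.18, -0.36 to 0.15 and -0.23 to 0.20. Dimmer probe sets changed at 12 h by -0.19 and -0.55 for Tpm1 and by -0.48, 0.01 and -0.33 for Tpm2. Those of Tpm3 changed by -0.13, 0.003, 0.71 and 0.86, and none of these was tested by itself. The difference between Tpm4 and the other tropomyosins was not tested.

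Tagln2, a transgelin of non-muscle cells, was lower at all 3 times. Its signals were 1156 and 1164 at 0 h, 742.8 and 873.1 at 3 h, 810.3 and 785.1 at 6 h, and 886.2 and 786 at 12 h. All later arrays lay below the 0 h arrays and close to each other. It fell by 0.52 ± 0.13, 0.54 ± 0.13 and 0.47 ± 0.13 (adjusted p = 0.0164, 0.00687 and 0.00949). Without array 1 or 2 at 0 h the adjusted p was 0.1 and 0.108 at 3 h and 0.0544 and 0.0602 at 12 h, without array 1 at 3 h it was 0.156 at 3 h, without array 2 at 0 h 0.0527 at 6 h, and without array 2 at 12 h 0.0764 at 12 h. As the mean of its probe sets the change was -0.32 at 3 h (adjusted p = 0.464) and -0.59 at 12 h (0.0874). Cnn3, the acidic calponin, changed by -0.15 ± 0.11 at 12 h (adjusted p = 0.298). Of the 13 tested genes with SRF, actins and contractile roles, 0 were higher and 4 lower at 12 h, with a median of -0.10. That is 30.8% called, beside 38.4% of all genes (20.9% higher and 17.5% lower).

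Among the 12 actin regulators, crosslinkers and linkers, all tested, 0 were higher and 6 lower at 12 h, with a median of -0.26. The called share was 50%, beside 38.4% of all genes (20.9% higher and 17.5% lower). The member that changed most among them was Rhob, a small GTPase of endosomes and stress fibres whose gene is known to respond quickly to stress. Its signals were 3075 and 3090 at 0 h, 3570 and 3848 at 3 h, 2138 and 1954 at 6 h, and 1597 and 1621 at 12 h. The 3 h arrays were the highest and the 12 h arrays the lowest, with no overlap between neighbouring times. The 3 h change of 0.27 ± 0.10 did not pass (adjusted p = 0.124), and Rhob fell by 0.59 ± 0.10 at 6 h (adjusted p = 0.0011) and by 0.93 ± 0.10 at 12 h (adjusted p = 1.69e-05). Rhoa, the related GTPase that drives stress fibre formation, changed by -0.27 ± 0.11 at 6 h and -0.19 ± 0.11 at 12 h (adjusted p = 0.0976 and 0.209). The other Rhoa probe set changed by -0.64 at 6 h and -0.34 at 12 h. As the mean of both, or with arrays scaled to the same median, Rhoa was called lower at 6 h.

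Flna, filamin A, crosslinks actin filaments and ties them to integrins. It had signals of 2284 and 2260 at 0 h, 1700 and 1719 at 3 h, 1469 and 1998 at 6 h, and 1214 and 1314 at 12 h. Each later array was below the 0 h arrays, and those of 12 h were below all others. It fell by 0.41 ± 0.14 at 6 h (adjusted p = 0.0417) and by 0.84 ± 0.14 at 12 h (adjusted p = 0.000304). The 6 h call was lost in 9 of 18 settings, and the change was -0.18 without array 1 at 6 h (adjusted p = 0.326). Without array 1 or 2 at 0 h its adjusted p was 0.17 and 0.153, and without array 1 or 2 at 3 h 0.0575 and 0.0572. Actn1 and Actn4, the alpha-actinins that also crosslink filaments, had 12 h changes of -0.01 and -0.14 with 95% intervals of -0.24 to 0.22 and -0.38 to 0.10. A dimmer Actn1 probe set changed by 0.70, 0.75 and 0.50 at 3, 6 and 12 h. Another changed by 0.39, 0.11 and 0.13, and neither was tested by itself.

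Among genes of filament turnover, Pfn1 fell at 3 and 6 h, Cfl1 and Arpc5 at 6 and 12 h, and Capzb at 12 h. Pfn1, profilin, which feeds actin monomers to growing ends, was the one called at 3 h. Its signals were 6457 and 6470 at 0 h, 4602 and 5021 at 3 h, 4847 and 4672 at 6 h, and 5585 and 5694 at 12 h. The 12 h arrays lay between those of 0 h and those of 3 and 6 h. It fell by 0.43 ± 0.10 at 3 h (adjusted p = 0.0146) and by 0.44 ± 0.10 at 6 h (adjusted p = 0.00575), while the 12 h change of -0.20 ± 0.10 did not pass (adjusted p = 0.144). The 3 h call was lost without array 1 or 2 at 0 h (adjusted p = 0.0991 and 0.103), without array 1 at 3 h (0.146) or without the trend (0.0691). Cfl1, cofilin, which severs filaments, fell by 0.32 ± 0.10 at 6 h and by 0.31 ± 0.10 at 12 h (adjusted p = 0.0314 and 0.0231). Both calls were lost without any 1 array of the times compared, with adjusted p of 0.0545 to 0.162 at 6 h and 0.0689 to 0.125 at 12 h.

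Arpc5, a subunit of the Arp2/3 complex that nucleates branched filaments, fell by 0.40 ± 0.10 at 6 h and by 0.35 ± 0.10 at 12 h (adjusted p = 0.0115 and 0.0164). Without array 1 or 2 at 0 h the adjusted p was 0.0689 and 0.0813 at 6 h and 0.0767 and 0.0946 at 12 h, and without array 1 of the later time 0.0542 and 0.0886. Arpc2, another subunit of that complex, changed by 0.23 ± 0.10 at 12 h (adjusted p = 0.0972, 95% interval 0.01 to 0.46). Capzb, the beta chain of the protein that caps filament ends, fell by 0.33 ± 0.11 at 12 h (adjusted p = 0.0339), a call lost in 8 of 18 settings. Its adjusted p was 0.213 and 0.0707 without array 1 or 2 at 0 h, 0.0524 and 0.0523 without array 1 or 2 at 3 h, and 0.187 without array 2 at 12 h, and as the mean of its probe sets the change was -0.12 (0.542). Ezr and Msn, ezrin and moesin, both link filaments to the membrane. Msn fell by 0.42 ± 0.11 at 12 h (adjusted p = 0.0104; 0.0938 and 0.0568 without array 2 at 0 h or at 12 h). Ezr had a 12 h change of 0.23 ± 0.12 (adjusted p = 0.129), with signals of 1887 and 1776 at 12 h, against 1502 and 1610 at 0 h, so the arrays did not overlap.

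**Figure D3:**
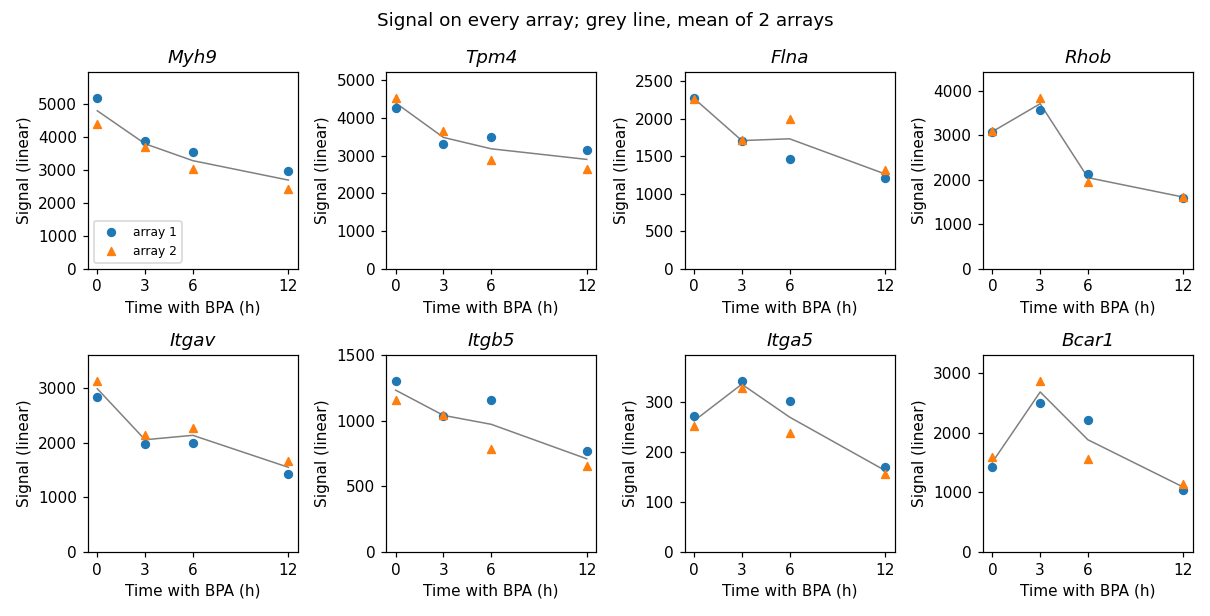
Signal on a linear scale against time with BPA for 8 members, with a point for each array and a grey line through the mean of 2 arrays. Myh9, Tpm4, Flna, Itgav and Itgb5 have their lowest mean at 12 h and their highest at 0 h; Rhob, Itga5 and Bcar1 have their highest mean at 3 h and their lowest at 12 h.

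Of the 5 integrin chains, 3 were lower at 12 h and 0 higher, with a median of -0.66. This is 60% of few genes, beside 38.4% of all genes (20.9% higher and 17.5% lower). Itgav, the alpha chain of receptors for vitronectin and other RGD ligands, was lower at every time. It had signals of 2842 and 3134 at 0 h, 1975 and 2133 at 3 h, 1997 and 2273 at 6 h, and 1425 and 1673 at 12 h. All arrays with BPA lay below the 0 h arrays. It fell by 0.54 ± 0.12, 0.48 ± 0.12 and 0.95 ± 0.12 at 3, 6 and 12 h (adjusted p = 0.0111, 0.0097 and 5.06e-05). Its 2 other, dimmer probe sets changed by -0.28 and 0.21 at 12 h, so the probe sets differ in direction, and as the mean of all of them the calls at 3 and 6 h were lost (-0.29 and -0.15; adjusted p = 0.145 and 0.393) and the 12 h change was -0.34 (adjusted p = 0.0409). Without array 2 at 0 h the adjusted p was 0.122 at 3 h and 0.101 at 6 h, and without array 1 of the later time 0.0998 and 0.0588.

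Itgb5, the beta chain that pairs with the alpha V chain in a vitronectin receptor, had signals of 1305 and 1162 at 0 h, 1037 and 1046 at 3 h, 1160 and 786.5 at 6 h, and 768.8 and 651.5 at 12 h. The 12 h arrays lay below all others, while the 6 h arrays were spread from near the 0 h level to near the 12 h level. It fell by 0.79 ± 0.17 at 12 h (adjusted p = 0.00199), and its 3 other probe sets changed by -0.66, -1.04 and -1.40. By the probe sets used, the mean signals of Itgav and Itgb5 at 12 h were 0.519 and 0.576 times those at 0 h, where the mean of all Itgav probe sets gives the smaller change above.

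Itga5, the alpha chain of the fibronectin receptor, had signals of 272 and 251.3 at 0 h, 341.6 and 327.9 at 3 h, 301 and 237.2 at 6 h, and 169.1 and 155.9 at 12 h. The 3 h arrays were the highest and the 12 h arrays the lowest. The 3 h change of 0.35 ± 0.18 did not pass (adjusted p = 0.248), and Itga5 fell by 0.66 ± 0.18 at 12 h (adjusted p = 0.0106; 0.0744 without array 1 at 0 h and 0.0529 without array 2 at 12 h). Its other probe set changed by 0.33, -0.13 and -0.87 at 3, 6 and 12 h. Itgb1, the beta chain that pairs with this and many other alpha chains, had a 12 h change of -0.14 ± 0.13 (adjusted p = 0.442, 95% interval -0.42 to 0.14). The dimmer Itgb1 probe sets changed by -0.22, 0.41, -0.11, -1.22 and -0.40 at 12 h, and none was tested by itself. Itga6, the alpha chain of a laminin receptor, changed by -0.25 ± 0.14 (adjusted p = 0.171). The difference between chains was not tested.

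Among the 6 tested adaptors and kinases of focal adhesions, 1 was higher at 3 h, and at 12 h 3 were lower and 0 higher, with a median of -0.38. The called share was 16.7% at 3 h and 50% at 12 h, beside 12.1% and 38.4% of all genes. Tln1, talin, which binds integrin tails and switches them on, had signals of 1444 and 1435 at 0 h, 1156 and 1098 at 3 h, 1049 and 929.5 at 6 h, and 832.8 and 826.6 at 12 h. The arrays of neighbouring times did not overlap, and the 12 h arrays were the lowest. It fell by 0.54 ± 0.11 at 6 h (adjusted p = 0.00381) and by 0.79 ± 0.11 at 12 h (adjusted p = 0.000143). Its other probe set, at signals of 60 to 151.2, changed by 0.67 at 12 h, and the mean of both was -0.06 (adjusted p = 0.795).

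Bcar1, the scaffold p130Cas that FAK and Src phosphorylate, was the only member called higher at 3 h. It had signals of 1428 and 1587 at 0 h, 2497 and 2873 at 3 h, 2211 and 1553 at 6 h, and 1036 and 1137 at 12 h. The 3 h arrays lay above all others and the 12 h arrays below all others. Bcar1 rose by 0.83 ± 0.15 at 3 h (adjusted p = 0.00339; 0.0518 without array 1 at 0 h) and fell by 0.47 ± 0.15 at 12 h (adjusted p = 0.0273). The 12 h call was lost without array 1 or 2 at 0 h (adjusted p = 0.0615 and 0.173), without array 1 at 12 h (0.137), without the trend (0.1) and as the mean of both probe sets (0.157). The other probe set changed by 0.61, 0.39 and -0.14 at 3, 6 and 12 h.

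Ilk, the integrin-linked pseudokinase that joins beta chains to parvin, fell by 0.43 ± 0.12 at 12 h (adjusted p = 0.0111; 0.124 and 0.0957 without array 2 at 0 h or at 12 h). Zyx, zyxin, which gathers at filaments under tension, changed by -0.33 ± 0.13 at 12 h (adjusted p = 0.0593). Pxn, the scaffold paxillin, changed by 0.01 ± 0.12 (95% interval -0.25 to 0.27). Its dimmer probe sets changed by -0.20 and 0.36 at 12 h, and neither was tested by itself.

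Later times were also compared directly, where a missing call with 2 arrays a time does not show that a change had stopped. For 6 h against 3 h only Rhob was called, lower at 6 h (-0.86 ± 0.10, adjusted p = 0.0016; 0.0702 without the trend), against 1.12% of all genes (0.565% higher and 0.553% lower). For 12 h against 6 h 3 members were lower, Bcar1 (-0.77, adjusted p = 0.0127), Itga5 (-0.69, 0.0458) and Itgav (-0.46, 0.0471), against 4.77% of all genes (0.922% higher and 3.85% lower). Without array 1 at 12 h, which leaves 1 array at that time, none of these calls held. Bcar1 also missed without array 1 at 6 h (0.0651). Without any 1 array at 0 or 3 h Bcar1 still passed, while Itga5 and Itgav did not. Under same-median scaling 1 member was higher and 1 lower. Over the 18 settings the Itga5 call was lost in 12, the Itgav call in 11 and the Bcar1 call in 3. The contrast of 12 h with 3 h was added after the values were seen. It called 1 member higher and 8 lower, against 21.9% of all genes (9.52% higher and 12.4% lower), and the 3 that held in all 18 settings were Bcar1 (-1.30 ± 0.15, adjusted p = 0.000104), Rhob (-1.20 ± 0.10, adjusted p = 9.86e-06) and Itga5 (-1.01 ± 0.18, adjusted p = 0.00173). Ezr was the member higher at 12 h than at 3 h (0.41 ± 0.12, adjusted p = 0.0224), a call lost without either array of either time (0.053 to 0.149) and without the trend (0.0723), and 0.18 as the mean of both probe sets (0.331). Under same-median scaling 3 members were higher and 3 lower. Without array 1 or 2 at 3 h, array 1 at 12 h or array 2 at 12 h, the number called was 3, 3, 5 and 4.

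Other genes of the same machinery, 67 named in a list of their own, were counted beside the members. Of 60 on the array 52 were tested. At 3 h 4 were higher and 5 lower (17.3% called, beside 12.1% of all genes). At 6 h 4 were higher and 10 lower (26.9%, beside 26.5%). At 12 h 6 were higher and 21 lower, or 51.9%, beside 38.4% of all genes (20.9% higher and 17.5% lower). The median at 12 h was -0.20. The 6 lower genes with the largest change at 12 h were Capg, a gelsolin-family capping protein (-1.59 ± 0.14), Tns1, tensin of focal and fibrillar adhesions (-1.58 ± 0.18), and Lasp1, an actin-binding LIM protein (-1.48 ± 0.28). They were followed by Fscn1, fascin, which bundles filaments (-1.28 ± 0.12), Parva, a parvin that binds ILK (-0.95 ± 0.17), and Dstn, destrin, a relative of cofilin (-0.93 ± 0.11). Fscn1 had signals of 2538 and 2088 at 12 h, against 5550 and 5682 at 0 h (adjusted p = 4.29e-06), with no overlap. The higher genes were Arhgef2, a microtubule-bound activator of RhoA (1.14 ± 0.12), Rnd3, a GTPase that opposes RhoA (1.08 ± 0.12), Pdlim7 (0.75 ± 0.12), the adaptor Crkl (0.53 ± 0.12), Pdlim5 (0.42 ± 0.15) and Actr3, a subunit of the Arp2/3 complex (0.39 ± 0.12). Rnd3 had signals of 1511 and 1553 at 12 h, against 797.5 and 650.3 at 0 h (adjusted p = 2.07e-05), and was already higher at 3 h by 1.32 ± 0.12 (adjusted p = 1.04e-05).

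**Figure D4:**
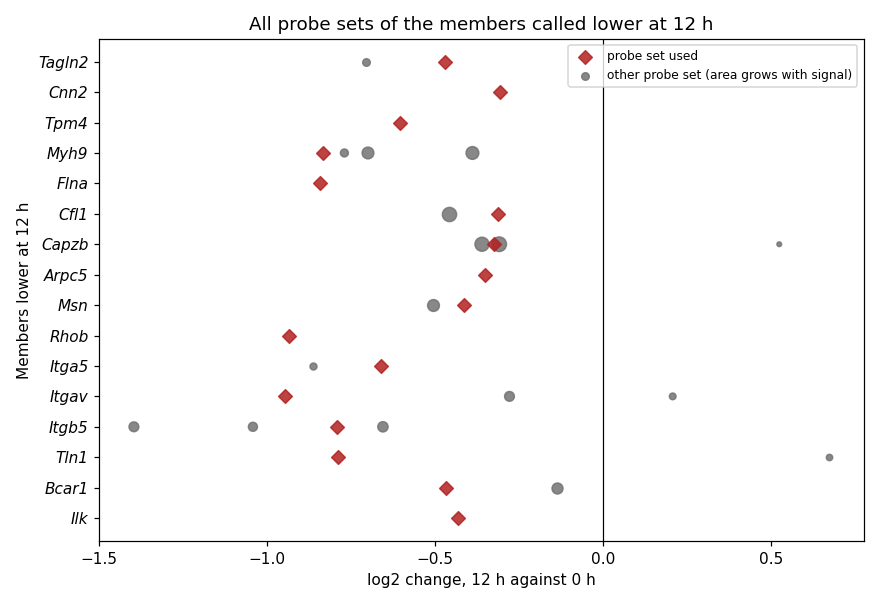
For each of the 16 members lower at 12 h, the red diamond is the log2 change of the probe set used and the grey circles are its other probe sets, larger where the signal is higher. All diamonds and 14 of the 17 circles lie below 0; the 3 above 0 belong to Capzb, Itgav and Tln1.

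Among the members lower at 12 h, probe sets of the same gene mostly moved the same way. In the other members this was not counted, and agreement there was poorer. The probe sets of Cnn3, Tpm2, Tpm3, Actn1, Itga6, Itgb1, Pxn and Zyx differed in direction at 12 h. Of the 16 members lower at 12 h, 6 were read by 1 probe set and 10 had others, 17 in all, of which 14 were below 0. The exceptions were the dimmest probe sets of Capzb (0.52), Itgav (0.21) and Tln1 (0.67). The probe sets used for 10 members can bind several transcripts: Srf, Acta2, Actg1, Cnn3, Myh9, Cfl1, Rhoa, Itga5, Bcar1 and Pxn, and their values are uncertain to that degree.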

How the data were processed

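The authors deposited linear signal intensity values, 1 for each probe set on each of 8 arrays; the summary software is not given in the sources used here. Judged by these values, the authors had scaled each array to the same mean (500.16 to 500.18 without the top and bottom 2%), so a general shift of RNA would not be seen. Of 22690 probe sets, 20380 had exactly 1 gene symbol, 691 several and 1555 none, and 64 were controls; symbols were updated through Entrez identifiers to RefSeq (GRCm38.p6).

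Values were analysed as log2(signal + 7.9), where 7.9 is the 10th percentile over the arrays. Genes above the 30th percentile of mean log2 signal were kept, which removed 3718. A mean per time was fitted with limma 3.58.1 in R 4.3.3 (eBayes with trend, 4 residual degrees of freedom), two-sided, with Benjamini-Hochberg adjustment over 8675 genes. Data were simulated for 12 h against 0 h over 8675 genes, with 200 of them changed and noise drawn from the fitted spread. There 79.6% of 2-fold and 97.4% of 4-fold changes were called, and 6.02% of calls were false. In the real data 3331 genes were called at 12 h, so these rates need not hold for them. The members, lists and tests were chosen with earlier results of these data known. All members are accounted for; values per array are given for called members that changed by at least 0.5 at any time, and for others chosen after their values were seen. The other genes named from the list of 67 are the called ones with the largest change at 12 h without overlap, up to 6 each way. Alternatives were other scalings, offsets, filters, fits and probe set choices and leaving out each array.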

Additional observations from a re-analysis of the deposited data

How the results depend on the processing

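The number of members called moved by over 1.5 times in these settings, for which shares of all genes are not given here. With arrays scaled to the same median 9 were called at 3 h, against 4 in the reported fit. Without the intensity trend 1 was called at 3 h, 5 at 6 h, 0 for 6 h against 3 h, 0 for 12 h against 6 h and 4 for 12 h against 3 h. At an unadjusted p under 0.05 those limma fits without the trend had 3 and 6 members for 6 h against 3 h and 12 h against 6 h. The share of all genes at that threshold is not given either, so these counts do not set the members apart. Fitting only the 2 times compared gave 9 at 3 h and 1 for 12 h against 6 h, the mean of all probe sets 2 at 3 h, and no filter 1 for 12 h against 6 h. Leaving out 1 array gave 1 to 7 at 3 h, 5 to 14 at 6 h and 8 to 18 at 12 h. It gave 1 to 2 for 6 h against 3 h, 0 to 3 for 12 h against 6 h and 3 to 9 for 12 h against 3 h. As the mean of both probe sets Tln1 changed by 0.088 for 12 h against 3 h, where the probe set used was lower by 0.44 (-0.44); its other probe set is dim. No other called change of a member reversed in any of the 18 settings. Array numbers are shared between times, and over all tested genes same-numbered arrays deviated together little (correlations of -0.01 to 0.12). Low correlations cannot tell whether same-numbered arrays share a source, and the labels do not say what the number stands for. With the number as a replicate block 8 members were called at 3 h and 5 for 12 h against 6 h, against 4 and 3. The block left the counts for the other comparisons within 1.5 times. The cause of these shifts was not tested, except that fewer arrays or genes enter some fits. With 2 arrays a time, small changes cannot be told from the spread, and dim probe sets such as those of Acta2, Tagln, Cnn1 and Myl9 have no usable precision.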
